A study of Mus musculus with 8 samples.

Results

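The 10 genes described here encode the granule proteins that a neutrophil makes in order as it matures. They were listed by name, from the stage at which the product is known to be made, with earlier results of these data known. The primary granule genes were Elane, Prtn3, Mpo and Ctsg, the secondary granule genes were Ngp, Camp, Ltf and Lcn2, and the tertiary granule genes were Mmp8 and Mmp9, 10 of 24405 gene names listed in the 8 tables. They were read in 10278 neutrophils and in 214 cells with primary granule transcripts, out of 47542 cells with at least 500 unique molecular identifiers (UMIs, each counted as 1 captured transcript) and of 80000 barcodes in all. A neutrophil was a cell with at least 2 UMIs of Csf3r, Cxcr2 and Il1r2 together, the receptors for G-CSF, for neutrophil chemokines and the decoy receptor for IL-1, none of which is a member. A primary granule cell was a cell with at least 3 UMIs of Elane, Prtn3, Mpo and Ctsg together, so the level of these 4 genes in such cells was fixed by the choice and is given as a description only.

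Hearts, livers and kidneys of BALB/c mice were placed in C57BL/6 recipients without drugs against rejection, and cells were taken on day 7 and sequenced by Microwell-seq, in which cells and barcoded beads are caught together in small wells. The 8 libraries, 1 for each group, were peripheral blood mononuclear cells (PBMCs) of recipients of a heart, a liver or a kidney, tissue-infiltrating lymphocytes (TILs) from a density gradient of each graft, and parenchymal cells (PCs) of liver and kidney grafts. The labels gave strain BALB/c, male sex and 8 weeks of age for every library, and how many of the 2 recipients of each organ entered a library was not given in the sources used here. Blood and graft samples of an organ came from the same recipients, so the blood and tissue libraries of one organ are not independent animals. Density gradients and mononuclear fractions are usually depleted of mature granulocytes, yet neutrophils by the rule above made up 9.80% to 75.5% of passing blood cells, so the blood and TIL neutrophils may be a fraction of those in the animal.

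In the marrow, granule proteins are made in waves. Promyelocytes fill primary (azurophil) granules with serine proteases and myeloperoxidase, myelocytes and metamyelocytes then make the secondary (specific) granule proteins, and band cells make gelatinases for tertiary granules, after which the nucleus becomes segmented and the cell leaves for the blood. Each transcript is shut off as the next wave starts, so the transcripts that a neutrophil still holds report on its stage, whereas the proteins stay in the granules for life.

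Depth and label checks set limits on every value below. The libraries held 3418722 to 19171264 UMIs, with a median of 581 to 1501.5 UMIs per passing cell. Neutrophils numbered 5870 in heart PBMC, 2667 for liver and 112 for kidney PBMC, 346 in the library labelled heart TIL, 881 in liver PC and 402 in the library labelled liver TIL, and 0 in kidney PC and kidney TIL, which allows a share of up to 0.377% and 0.150% of cells. Pairs of libraries shared 123 to 617 barcodes. The hepatocyte genes together, albumin among them, stood at a level of 363 CPM (UMIs of a gene scaled to the same total in every set of cells) in cells outside both rules of the library labelled heart TIL, at 213 CPM in liver PC and at 1.91 CPM in the library labelled liver TIL, which goes against the labels of both TIL libraries, so these are named by their labels throughout. Tissue neutrophils held the complement genes of macrophages (C1qa, C1qb and C1qc) at 3408 to 4475 CPM, close to the 3550 to 5707 CPM of the cells outside both rules, against 0 to 41.0 CPM in blood neutrophils. The 14 mature neutrophil genes summed to 35833 to 51382 CPM in tissue neutrophils, above the 9210 to 9364 CPM of other cells of the same libraries and below the 162856 to 229717 CPM of blood neutrophils.

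The windows before the start sites of the primary and secondary genes are shown because the 2 groups are switched on at different stages. Sequences came from RefSeq (GRCm38.p6), which held 9 of the 10 members, and exon sequence (GENCODE) was left out of what is printed of the 250 bases before the start. The RefSeq start used lay within 513 bases of the GENCODE gene start except for Prtn3, where it lay 5191 bases inside the gene. Capitals mark AGGAAGT in the primary genes, a form of the site that ETS factors such as PU.1 bind, or TTNNGNAA in the secondary genes, the core spacing of C/EBP sites, on either strand. The regions lie on the plus strand for Elane (chr10:79886062-79886246), Prtn3 (chr10:79879417-79879613), Mpo (chr11:87793534-87793580), Ngp (chr9:110419558-110419746) and Ltf (chr9:111019042-111019270), and on the minus strand for Ctsg (chr14:56102575-56102824), Camp (chr9:109849618-109849706) and Lcn2 (chr2:32387798-32387850).
Elane: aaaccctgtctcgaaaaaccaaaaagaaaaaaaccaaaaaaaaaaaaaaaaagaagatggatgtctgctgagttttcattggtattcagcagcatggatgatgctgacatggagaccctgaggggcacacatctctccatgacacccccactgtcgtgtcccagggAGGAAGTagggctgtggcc
Prtn3: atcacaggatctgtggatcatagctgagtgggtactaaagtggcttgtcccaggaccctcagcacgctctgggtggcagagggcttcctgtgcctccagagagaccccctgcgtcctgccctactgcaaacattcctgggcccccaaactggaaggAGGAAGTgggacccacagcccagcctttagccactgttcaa
Mpo: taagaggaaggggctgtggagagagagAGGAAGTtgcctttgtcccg
Ctsg: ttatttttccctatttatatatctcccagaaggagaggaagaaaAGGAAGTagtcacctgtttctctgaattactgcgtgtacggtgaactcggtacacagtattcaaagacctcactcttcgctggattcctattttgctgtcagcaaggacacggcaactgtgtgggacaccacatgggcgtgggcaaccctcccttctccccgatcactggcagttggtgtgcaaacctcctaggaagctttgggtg
Ngp: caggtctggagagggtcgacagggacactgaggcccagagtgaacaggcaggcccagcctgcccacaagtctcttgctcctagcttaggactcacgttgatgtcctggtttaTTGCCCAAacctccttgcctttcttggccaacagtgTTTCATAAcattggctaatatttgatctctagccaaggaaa
Camp: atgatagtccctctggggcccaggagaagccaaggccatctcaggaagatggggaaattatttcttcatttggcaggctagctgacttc
Ltf: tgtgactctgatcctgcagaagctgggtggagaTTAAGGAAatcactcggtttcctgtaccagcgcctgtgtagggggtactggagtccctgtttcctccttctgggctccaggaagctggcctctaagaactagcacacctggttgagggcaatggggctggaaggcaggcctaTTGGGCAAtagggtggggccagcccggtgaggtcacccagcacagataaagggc
Lcn2: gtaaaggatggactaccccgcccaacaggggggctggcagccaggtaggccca

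Both motifs were searched in all 250 bases before the start, exon sequence included. AGGAAGT was found in 4 of 4 primary genes and in 0 of 4 secondary genes, and 7.69% of 32851 promoters held it. It began 84 bases before the start in Elane, 94 in Prtn3, 223 in Mpo and 206 in Ctsg. TTNNGNAA was found in 0 of 4 primary genes and in 3 of 4 secondary genes (Ngp, Ltf and Lcn2), and 36.8% of promoters held it. The match of Lcn2 and the one of Ngp nearest to the start lie outside the stretches printed. No match of one overlapped a match of the other. Both motifs were chosen after these sequences had been read, and a match describes letters only. Mmp8 held both. Elane and Prtn3 lie close together on chromosome 10, Elane at chr10:79886247-79888215 and Prtn3 at chr10:79874476-79883174, and Ngp, Camp and Ltf lie within one stretch of chromosome 9, from 109847379 to 111042767.

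In blood neutrophils tertiary and Lcn2 transcripts were in most cells, Ngp, Camp and Ltf in a minority, and primary transcripts in few. The tertiary genes together stood at 4334 CPM in heart PBMC, with 1727 CPM for liver PBMC and 2689 CPM for kidney PBMC. Ngp, Camp and Ltf together stood at 657, 104 and 1248 CPM, and the primary genes at 65.5, 54.0 and 0 CPM. Lcn2, although counted here as a secondary gene, was at 6627, 2271 and 2406 CPM and made up most of the secondary sum in each blood library. With it, a secondary UMI was seen in 95.8%, 65.0% and 54.5% of neutrophils thinned to 500 UMIs each, so Ngp, Camp and Ltf are also given apart from it. All levels are 3' end counts and serve to compare a gene between cells rather than genes with each other. Intervals given with levels, ratios and shares are 95% and cover counting error only, since each group was 1 library and UMIs of 1 cell are not independent.

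**Figure D1:**
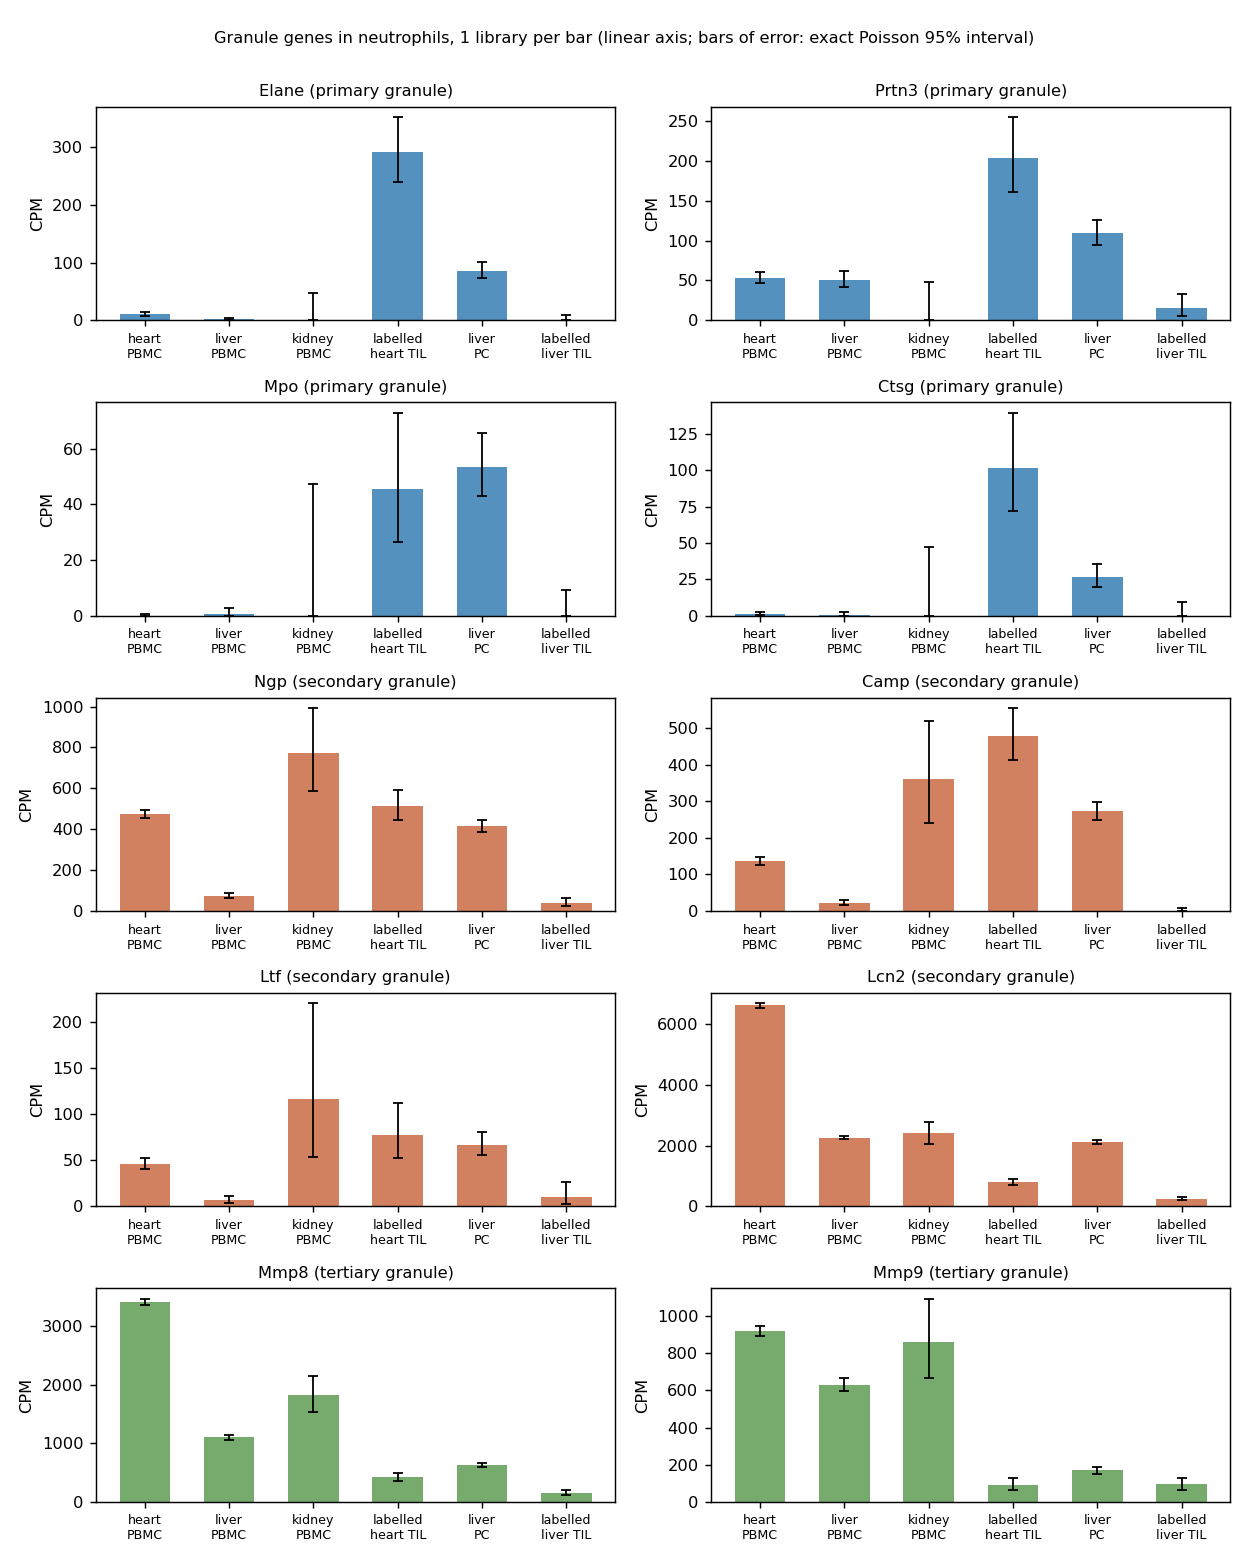
Level of each of the 10 granule genes in neutrophils of 6 libraries, in CPM on a linear axis from 0 with its own scale for each gene; bars are the level of the summed cells and lines are exact Poisson 95% intervals. Lcn2, Mmp8 and Mmp9 are highest in blood libraries and Elane, Mpo and Ctsg in the library labelled heart TIL and liver PC.

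Among the primary genes, Prtn3 (proteinase 3) had the most UMIs in heart and liver PBMC neutrophils. Heart PBMC held it at 53.4 CPM (47.2-60.1) and liver PBMC at 51.2 CPM (42.1-61.7), while kidney PBMC showed 0 of 77732 UMIs, which allows up to 38.6 CPM. Elane (neutrophil elastase) was at 10.95 CPM (8.27-14.2), 1.86 CPM (0.507-4.77) and 0 CPM in the same order. Mpo (myeloperoxidase) and Ctsg (cathepsin G) were each represented by at most 6 UMIs in the neutrophils of any blood library. Cells classed as monocytes, by at least 3 UMIs of Ly6c2, Ccr2, F13a1, Ms4a6c and Csf1r together, held Prtn3 as well, at 115 CPM (84.8-153) in heart PBMC and 96.2 CPM (81.2-113) in liver PBMC, and T cells, with at least 2 UMIs of Cd3d, Cd3e and Cd3g together, at 26.3 and 11.0 CPM. After thinning of each cell to 500 UMIs, a primary UMI was seen in 2.95% (2.53-3.41) of heart PBMC neutrophils, 2.25% (1.72-2.89) of liver PBMC neutrophils and 0% (0-3.24) of kidney PBMC neutrophils. In T cells, which should lack these genes, the shares were 1.57% (0.191-5.57), 0.935% and 0%, with median depths of 775, 708 and 844.5 UMIs against 783, 686 and 620 in neutrophils, so the primary share of blood neutrophils could not be set apart from that of T cells at these cell numbers.

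Liver PBMC and heart PBMC neutrophils differed in the secondary genes. Ngp (neutrophilic granule protein) was at 475 CPM (456-494) in heart PBMC and 75.4 CPM (64.2-87.9) in liver PBMC, a level 6.30-fold lower (5.37-7.43) in liver PBMC. Camp, which encodes the cathelicidin peptide, was at 136 CPM (126-147) and 21.9 CPM (16.1-29.1), 6.23-fold lower (4.64-8.56). Ltf (lactoferrin) was at 45.8 CPM (40.1-52.0) and 6.52 CPM (3.56-10.9), 7.02-fold lower (4.10-13). The 3 genes thus differed by about the same ratio, and by more than Lcn2 (lipocalin 2, which binds bacterial siderophores), at 2.92-fold lower (2.83-3.01). Mmp8 (neutrophil collagenase) was 3.12-fold lower (2.98-3.25), Mmp9 (gelatinase B) 1.46-fold lower (1.37-1.55), and Prtn3 stood at a ratio of 0.959 (0.761-1.20).

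By the rule of size, at least 2-fold among genes with at least 20 UMIs in both libraries together, 6 of the 8 members with enough UMIs were lower in liver PBMC and 0 were higher. Over all 8853 genes with enough UMIs, 4.0% were lower and 17.9% were higher, and the median log2 ratio was 0.29. A member with fewer than 20 UMIs on one side could pass the minimum through the other side alone, so counts of members called are descriptions here and below, and such members are named. The comparisons given here share libraries with each other, heart PBMC and liver PBMC in particular, and none of them is independent of the rest. The sixth of the lower members was Elane, on 4 UMIs against 56, and Ltf had 14 against 234, so both passed through heart PBMC alone. The difference was also one of cells: Ngp, Camp or Ltf was seen in 20.5% (19.5-21.5) of thinned neutrophils in heart PBMC and in 4.01% (3.30-4.83) in liver PBMC. In T cells of these libraries the shares were 11.0% (6.16-17.8) and 0% (0-3.39). Cells classed as B cells held any of the 3 in 21.3% and 2.01%, and monocytes in 18.6% and 2.84%, in the same order. Their intervals overlapped those of neutrophils, so the neutrophil shares could not be set apart from those of B cells and monocytes. The 3 genes together stood at 644 CPM in B cells and 1610 CPM in monocytes of heart PBMC, against 657 CPM in its neutrophils. The difference in neutrophils did not rest on a few cells, since 1858 neutrophils of heart PBMC held the 3360 UMIs of the 3 genes and the cell with most held 4.64% of them. Without the 5 cells richest in each gene the ratios were 7.87-fold for Ngp, 7.12-fold for Camp and 14.6-fold lower for Ltf. The T cells of heart PBMC held Lcn2 at 2922 CPM and a tertiary UMI in 52.8% (43.7-61.7), against 657 CPM and 23.4% in those of liver PBMC. Transcripts outside neutrophils thus moved with the neutrophil values, and their part in the difference was not tested.

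Other genes of the secondary stage, from a list of 14, were mostly lower in liver PBMC as well. Of 12 with enough UMIs, 8 were lower and 1 was higher, with a median log2 ratio of -1.13. Wfdc21 was at 5228 CPM in heart PBMC and 1914 CPM in liver PBMC, Hp (haptoglobin) at 5554 and 2545 CPM, Pglyrp1 (a peptidoglycan recognition protein) at 1856 and 852 CPM, and Ly6g, the classical surface marker of mouse neutrophils, at 410 and 132 CPM. Cybb, the heavy chain of the NADPH oxidase, was the 1 that was higher, at 112 and 310 CPM. Of the 6 other tertiary-stage genes, Fpr1 and Fpr2 (formyl peptide receptors) were lower and 4 were neither, and of the 14 mature genes 2 were lower, among them Retnlg (resistin-like gamma), at 32641 and 9885 CPM. The other azurophil-stage genes gave 4 higher and 1 lower of 8, the higher ones being Ctsc, Igfbp4, Gstm1 and Calr. Erythroid genes moved with these differences, all 5 being higher in liver PBMC neutrophils, where they summed to 12567 CPM against 176 CPM.

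Kidney PBMC gave 112 neutrophils, and a single cell weighed heavily in its secondary genes. Ngp stood at 772 CPM (589-994), Camp at 360 CPM (239-521) and Ltf at 116 CPM (52.9-220), on 60, 28 and 9 UMIs. Of these 97 UMIs, 61 (62.9%) were in 1 of the 15 cells that held any, and without it the sum fell from 1248 to 467 CPM. Monocytes of kidney PBMC held the 3 genes together at 1245 CPM (1096-1409), and T cells at 59.7 CPM (31.8-102). The neutrophil level could thus not be set apart from that of monocytes. Of all UMIs of the 3 genes in passing cells of kidney PBMC, 78.1% lay outside both rules. Against kidney PBMC, liver PBMC was lower for 3 of 7 members with enough UMIs and higher for 0, where 12.1% of 6560 genes were lower and 10.5% higher. The 3 were Ngp (10.2-fold), Camp (16.5-fold) and Ltf (17.8-fold), and without the richest cell of each sum the log2 ratios were -2.40, -2.36 and -2.63. Without the 5 richest cells Ngp was 2.31-fold lower in liver PBMC, the 3 genes together were 1.85-fold lower, and no UMI of Camp or Ltf was left in kidney PBMC, so these 2 calls ended. Lcn2, Mmp8 and Mmp9 did not reach 2-fold. Prtn3, on 110 UMIs against 0, passed the minimum through liver PBMC alone and was not called. Ltf, on 14 UMIs in liver PBMC and 9 in kidney PBMC, passed it only by both together. Against kidney PBMC, heart PBMC was higher for 1 of 8 members (Lcn2, 2.75-fold) and lower for 2 (Camp and Ltf), where 7.11% of 7781 genes were higher and 23.1% lower. Those 2 turned to log2 ratios of 0.48 and 0.64, higher in heart PBMC, without the richest cell of each sum, and Mmp8 was then 2.04-fold higher. Without the 5 richest, Ngp was 3.42-fold, Mmp8 2.68-fold and the sum of Ngp, Camp and Ltf 4.14-fold higher in heart PBMC. In that comparison Elane, Prtn3 and Ltf passed the minimum through heart PBMC alone, on 56, 273 and 234 UMIs against 0, 0 and 9. Of the secondary-stage list, Chil3 (the chitinase-like protein Ym1) stood out in kidney PBMC at 129 CPM on 10 UMIs, against 5120 CPM in heart PBMC and 4450 CPM in liver PBMC.

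**Figure D2:**
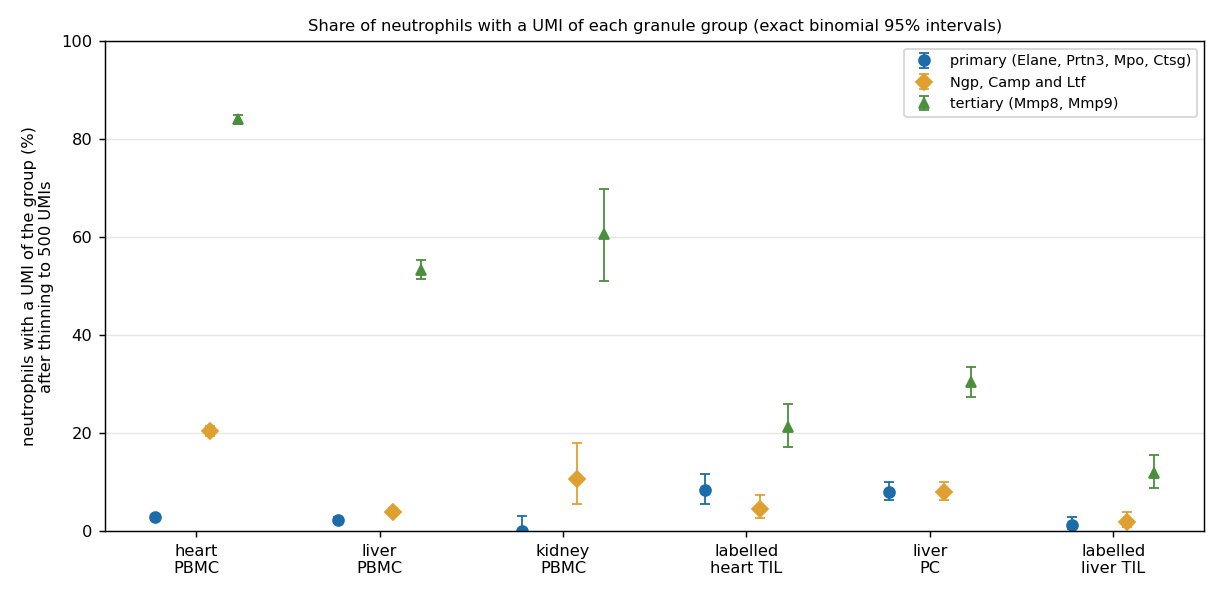
Share of neutrophils with at least 1 UMI of each granule group after thinning of each cell to 500 UMIs, in percent, for 6 libraries; lines are exact binomial 95% intervals. Tertiary UMIs are seen in 53.4% to 84.1% of blood neutrophils and in 11.9% to 30.4% of tissue neutrophils, and primary UMIs in no more than 8.38% anywhere.

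Mmp8 and Mmp9, the late granule transcripts, stood lower in neutrophils of liver PC and of the TIL libraries than in any blood library. Lcn2 was at 2134 CPM in liver PC, 809.5 CPM in the library labelled heart TIL and 242 CPM in the library labelled liver TIL. Mmp8 stood at 624, 418 and 157 CPM and Mmp9 at 168, 91.1 and 93.4 CPM in the same order, all below the lowest blood level of each of these 2 genes (1096 CPM and 631.5 CPM in liver PBMC). A tertiary UMI was seen in 30.4%, 21.4% and 11.9% of thinned neutrophils, against 3.48%, 2.60% and 2.05% of T cells in these libraries, with median depths of 1471, 868.5 and 825.5 UMIs in neutrophils and 1295, 761 and 729 in T cells. The tertiary UMIs were spread over many cells, 111 in the library labelled heart TIL and 472 in liver PC. T cells, which should lack these genes, held less in tissue as well. Their Mmp8 level was 1181 CPM in heart PBMC, 471 CPM in liver PBMC and 64.2 CPM in kidney PBMC. It was 50.2 CPM in liver PC, and 46.5 and 27.1 CPM in the libraries labelled heart TIL and liver TIL. Transcripts outside neutrophils thus moved in the same direction, and their part in the tissue values was not tested.

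Against blood of the same label, Lcn2 was 8.19-fold lower (7.31-9.20) in the library labelled heart TIL and 9.37-fold lower (7.65-11.6) in the library labelled liver TIL. Mmp8 was 8.17-fold (6.97-9.62) and 7.00-fold lower, and Mmp9 10.1-fold (7.21-14.6) and 6.76-fold lower. T cells held Lcn2 at 2922 CPM in heart PBMC and 657 CPM in liver PBMC, against 169 and 43.8 CPM in the TIL libraries of the same labels. In liver PC against liver PBMC, only Mmp9 of these 3 genes passed the rule of size, 3.75-fold lower (3.30-4.27), whereas Lcn2 had a ratio of 0.940 and Mmp8 of 0.569. Retnlg stood at 2265, 861 and 3297 CPM in the libraries labelled heart TIL and liver TIL and in liver PC, below every blood library. Of the 14 mature genes 11 were lower in the library labelled heart TIL, where 12.1% of all genes were, 9 in the library labelled liver TIL, where 16.1% were, and 10 in liver PC, where 9.20% were. Il1b did not follow them, at 5028 CPM in liver PC, 5920 CPM in the library labelled liver TIL, 3704 CPM in the library labelled heart TIL, 3497 CPM in heart PBMC and 2431 CPM in liver PBMC.

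When neutrophils with any UMI of a T cell, B cell or macrophage marker were left out, 27, 58 and 19 tissue neutrophils were left in the libraries labelled heart TIL, liver PC and the library labelled liver TIL. The tertiary log2 ratio of the library labelled heart TIL over heart PBMC was then -1.47 in place of -3.09, and that of liver PC over liver PBMC was -0.32 in place of -1.12. The secondary log2 ratio of the library labelled heart TIL over heart PBMC went from -1.95 to 0.07. The lower late transcripts of tissue neutrophils thus moved with marker transcripts of other cells in the same barcodes, and the part of these in the result was not tested.

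Primary transcripts stood higher in neutrophils of liver PC and of the library labelled heart TIL than in those of blood, with many of the UMIs in few cells. Elane stood at 292 CPM (240-352) in the library labelled heart TIL, 85.9 CPM (72.6-101) in liver PC and 0 CPM in the library labelled liver TIL. Prtn3 stood at 204, 109 and 15.2 CPM, Mpo at 45.6, 53.4 and 0 CPM, and Ctsg at 102, 26.7 and 0 CPM in the same order. The library labelled heart TIL and liver PC thus held all 4 genes, and the library labelled liver TIL held 6 UMIs of Prtn3 alone. In the library labelled heart TIL, 1 of the 45 neutrophils with a primary UMI held 161 of the 240 UMIs (67.1%), and the sum fell from 643 to 216 CPM without it. In liver PC, 204 neutrophils held 474 UMIs, 84 of them (17.7%) in 1 cell, and the sum fell from 275 to 227 CPM without it. These levels include neutrophils that also met the primary rule, 6 in the library labelled heart TIL and 21 in liver PC. Without them the primary genes stood at 126 and 132 CPM, against 110 and 93.4 CPM in cells of these libraries outside both rules that met the marker rule of no single class. Elane was then at 39.1 and 29.5 CPM, and Prtn3 at 50.3 and 66.8 CPM, against 49.6 and 49.8 CPM in heart PBMC and liver PBMC neutrophils chosen in the same way.

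As a share of thinned cells that did not meet the primary rule, a primary UMI was seen in 6.98% (5.37-8.89) of liver PC neutrophils and in 2.85% (2.05-3.85) of its T cells, so the interval of neutrophils lay above that of T cells. It overlapped those of monocytes at 7.07% (5.34-9.14), macrophages, with at least 3 UMIs of the C1q genes, at 5.29% (3.22-8.14) and cells of no single class at 5.64% (5.09-6.23), so the share in neutrophils could not be set apart from that of these 3 sets of cells. The shares were 7.06% (4.57-10.3) and 4.71% (3.84-5.71) in the library labelled heart TIL, and the intervals overlapped. The shares of all neutrophils and of T cells were 1.24% (0.405-2.88) and 0.574% in the library labelled liver TIL. T cells held the primary group at 90.9 CPM in the library labelled heart TIL and 51.1 CPM in liver PC, so part of the neutrophil level was shared by cells that should lack it.

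By the rule of size, liver PC neutrophils were higher than those of liver PBMC for 7 of 10 members and lower for 1, where 24.5% of 8606 genes were higher and 9.20% lower. Elane was 46.2-fold higher (17.7-172), Mpo 115-fold and Ctsg 57.4-fold higher, each against 4 UMIs or fewer in liver PBMC, so these 3 passed the minimum through liver PC alone. Mpo and Ctsg rested on 1 UMI each in liver PBMC. Prtn3 was 2.13-fold higher (1.68-2.72), or 1.99-fold without the richest cell of each sum. Ngp was 5.49-fold higher (4.62-6.55), Camp 12.5-fold (9.25-17.3) and Ltf 10.2-fold higher, Ltf on 115 UMIs against 14 and thus also through liver PC alone. Of the 1299 UMIs of these 3 genes in liver PC neutrophils, 69.7% were in 5 of the 152 cells that held any. Without the 5 richest cells in each sum, Ngp was 2.68-fold and Camp 4.58-fold higher in liver PC. Cycling genes moved with these members, 9 of 10 being higher, as did the 3 T cell and the 3 macrophage markers, and their part in the result was not tested.

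The library labelled heart TIL was higher than heart PBMC for 4 of 9 members and lower for 3, where 32.9% of 8104 genes were higher and 12.1% lower. The higher members were Elane (26.7-fold), Prtn3 (3.82-fold), Ctsg (86.8-fold) and Camp (3.52-fold), and the lower ones were Lcn2, Mmp8 and Mmp9. Ctsg passed the minimum through the tissue library alone, on 38 UMIs against 6, was 33.5-fold higher without the richest cell, and stood at 13.98 against 1.18 CPM without cells that met the primary rule. The ratio was 5.63-fold for Elane and 1.83-fold for Prtn3 without the richest cell of each sum. Without the 5 richest, Elane was 4.37-fold higher and Prtn3 stood at 50.2 CPM against 50.1 CPM, so its difference was gone. Camp turned to 3.91-fold lower without the 5 richest cells of each sum, and Ngp, at a ratio of 1.08 with all cells, to 11.9-fold lower. Of the 400 UMIs of Ngp, Camp and Ltf in this library's neutrophils, 94.0% were in 5 of 29 cells. The share of thinned neutrophils with any of the 3 was 4.62% (2.67-7.40), overlapping that of its T cells at 3.08% (2.38-3.91).

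The library labelled liver TIL was lower than liver PBMC for 5 of 6 members and higher for 0, where 16.1% of 7103 genes were lower and 17.4% higher. These 5 were Prtn3 (3.38-fold), Lcn2, Mmp8, Mmp9 and Camp, the last with 0 UMIs and thus at least 2.89-fold lower, with the limit of 3 UMIs taken for the tissue sum. Camp (47 UMIs) and Prtn3 (110 UMIs against 6) passed the minimum through liver PBMC alone. Ngp was 1.87-fold lower, on 16 UMIs in 7 cells, and 3.76-fold lower without the richest cell of each sum. Of 9 other secondary-stage genes with enough UMIs, 7 were lower and 0 higher, Chil3 among them at 967 CPM against 4450 CPM. Erythroid genes summed to 47334 CPM in these tissue neutrophils.

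The labelled heart and liver TIL libraries also differed from each other: 8 of 9 members were higher in the library labelled heart TIL and 0 were lower, where 6.76% of 4098 genes were higher and 6.20% lower. Prtn3 was 13.4-fold higher (5.90-37.8), Ngp 12.7-fold (7.64-22.7), Ltf 7.69-fold (2.70-30.1), Lcn2 3.34-fold (2.65-4.25) and Mmp8 2.67-fold higher (1.98-3.64). Elane, Ctsg and Camp were at 0 in the library labelled liver TIL, and were at least 38.6-fold, 13.4-fold and 63.3-fold higher against the limit of 3 UMIs in its sum. Elane, Ctsg and Camp thus passed the minimum through the library labelled heart TIL alone. So did Prtn3, Ngp and Ltf, with 6, 16 and 4 UMIs in the library labelled liver TIL. Mmp9 differed by a ratio of 0.975, and Mpo had 17 UMIs against 0, below the minimum. The cells rich in primary, Ngp, Camp and Ltf transcripts described above are part of these ratios, and without the richest cell of each sum Prtn3 was 7.54-fold and Ngp 19.1-fold higher. Elane and Ctsg were then at 57.3 and 32.8 CPM in the library labelled heart TIL, in place of 292 and 102 CPM, against the limit of 7.58 CPM. Without the 5 richest, Camp was at 27.2 CPM and Ctsg at 8.36 CPM, so that the call for Ctsg ended, Ngp was 6.89-fold higher and no UMI of Ltf was left in either library. Hepatocyte genes moved with them, 3 of 3 being higher in the library labelled heart TIL, and the 5 erythroid and 5 stromal genes were lower.

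**Figure D3:**
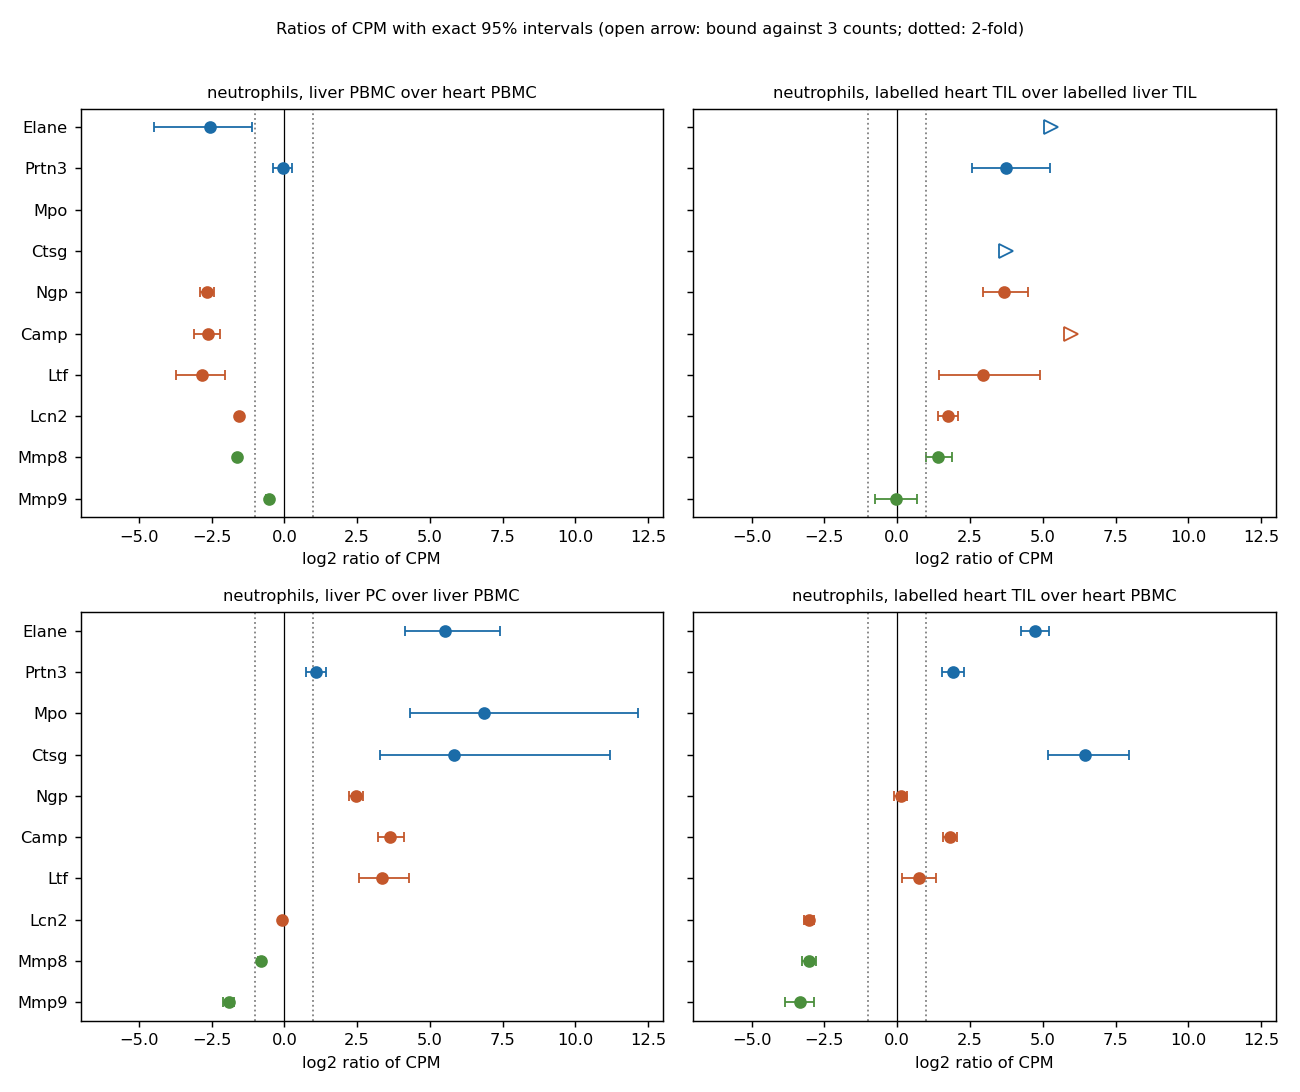
Log2 ratio of the CPM of each member between neutrophils of 2 libraries, for 4 comparisons; points are ratios, lines are exact conditional binomial 95% intervals for counting error, open arrows are bounds where a sum held no UMI, and dotted lines mark 2-fold. Liver PBMC lies below heart PBMC for the secondary genes, and Lcn2, Mmp8 and Mmp9 lie below 0 in the library labelled heart TIL against heart PBMC.

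The primary granule cells numbered 129 in liver PC, 62 in the library labelled heart TIL, 11 in heart PBMC, 6 in liver PBMC, 5 in the library labelled liver TIL, 1 in kidney PBMC and 0 in kidney PC and kidney TIL. They were 1.29%, 0.641%, 0.142%, 0.0880%, 0.0536% and 0.0875% of passing cells in the first 6. In the first 3 their median depths were 2341, 1139 and 3514 UMIs, against 1471, 868.5 and 783 in neutrophils. Passing cells of kidney PC and kidney TIL had medians of 581 and 655 UMIs. The counts are not adjusted for depth. In liver PC and the library labelled heart TIL, at least 2 of the 4 genes were seen in 107 and 56 cells and all 4 in 36 and 18 cells. At the threshold, 45 and 17 cells had exactly 3 UMIs, and 227 and 73 cells with 2 UMIs lay just outside. The cell with most held 198 primary UMIs in liver PC and 161 in the library labelled heart TIL, and the median was 5 in both. Elane, Prtn3, Mpo and Ctsg stood at 2610, 2386, 1470 and 1264 CPM in liver PC and at 6807, 3044, 1888 and 1439 CPM in the library labelled heart TIL, as the rule required of their sum. Only 21 of 129 and 6 of 62 of these cells also met the neutrophil rule.

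Genes that the rule did not use set these cells apart from neutrophils of the same library that did not meet it. Ms4a3, a gene of granulocyte and monocyte progenitors, was at 549 CPM in the primary granule cells of liver PC and 10.2 CPM in its neutrophils, and at 802 and 11.2 CPM in the library labelled heart TIL. Fcnb (ficolin B) stood at 175 and 4.81 CPM in liver PC, and at 543 CPM against 0 UMIs in the library labelled heart TIL. Cebpe, the transcription factor needed for secondary granules, stood at 50.9 and 4.81 CPM in liver PC. Over all genes with enough UMIs, 8.45% were higher and 11.0% lower in the primary granule cells of liver PC. In the library labelled heart TIL 10.1% were higher and 15.7% lower. Of the other azurophil-stage genes with enough UMIs, 5 of 9 in liver PC and 4 of 7 in the library labelled heart TIL were higher in the primary granule cells and 0 were lower, Serpinb1a and Gstm1 in both. Of 14 mature genes 0 were higher and 9 and 10 were lower, Retnlg at 280 against 3407 CPM and at 295 against 2335 CPM. Monocyte markers were present too, with Ly6c2 at 5025 and 4577 CPM, and in each library 2 of 5 monocyte genes were higher than in neutrophils. Basophil or mast cell genes summed to 486 CPM in liver PC, where Prss34 and Mcpt8 were at 274 and 167 CPM, and to 11.8 CPM in the library labelled heart TIL.

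The tertiary genes were lower in the primary granule cells than in the neutrophils of both libraries. In the library labelled heart TIL this held at the floor of 500 UMIs, with a log2 ratio of -1.62 for the 2 genes together, while at a floor of 1000 UMIs it was -0.52, short of 2-fold. In liver PC, Mmp8 was 2.20-fold lower (1.78-2.73) and Mmp9 4.71-fold lower (2.71-8.96) than in neutrophils. In the library labelled heart TIL, Mmp8 was 2.94-fold and Mmp9 3.91-fold lower, on 12 and 2 UMIs in the primary granule cells. As thinned shares, a tertiary UMI was seen in 6.98% (3.24-12.8) of primary granule cells and 30.6% (27.5-33.8) of neutrophils in liver PC, and in 4.84% (1.01-13.5) and 21.2% (17.0-25.9) in the library labelled heart TIL. Lcn2 was 1.65-fold lower in liver PC, which is neither by the rule of size, and 2.60-fold lower in the library labelled heart TIL. Other cells also held the tertiary genes below the level of neutrophils. In liver PC the level was 314 CPM in primary granule cells, 291 CPM in monocytes, 81.4 CPM in macrophages and 69.9 CPM in T cells. In the library labelled heart TIL it was 165, 191, 73.7 and 55.7 CPM in the same order. A level below that of neutrophils was thus not particular to the primary granule cells.

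Ngp, Camp and Ltf went the other way in liver PC, on few cells. They were 3.03-fold, 5.53-fold and 2.18-fold higher in the primary granule cells than in neutrophils, and Camp was 2.59-fold higher in the library labelled heart TIL, where Ngp was 1.69-fold and Ltf 6.87-fold lower, Ltf on 1 UMI. The 825 UMIs of the 3 genes in liver PC were in 19 of 129 cells, with 244 of them (29.6%) in 1 cell. Those of the library labelled heart TIL were 138 UMIs in 10 of 62 cells, with 63 of them (45.7%) in 1 cell. Without the richest cell of each sum Ltf was at a ratio of 1.21 in liver PC, and without the 5 richest Ngp was at 0.96 and Camp still 4.12-fold higher. Without the 5 richest in the library labelled heart TIL, Camp was at a ratio of 0.92. By share of thinned cells, any of the 3 was seen in 12.4% (7.26-19.4) against 7.91% (6.19-9.92) in liver PC and in 12.9% (5.74-23.9) against 4.71% (2.71-7.53) in the library labelled heart TIL, with overlapping intervals in both.

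By the rule of size over the 6 members that the rule for cells did not use, 3 were higher and 2 lower in liver PC, where 8.45% of 7254 genes were higher and 11.0% lower. Of the same members 1 was higher and 4 were lower in the library labelled heart TIL, where 10.1% of 2929 genes were higher and 15.7% lower. Mmp9 in liver PC, with 13 UMIs in the primary granule cells, and Ltf, Mmp8 and Mmp9 in the library labelled heart TIL, with 1, 12 and 2, passed the minimum through the neutrophils alone. In blood, the primary granule cells of heart PBMC held Prtn3 at 1165 CPM, Elane at 609 CPM, Ctsg at 344 CPM and 1 UMI of Mpo, with Chil3 at 18343 CPM, 1 UMI of Ngp and none of Camp. Lcn2 was at 2726 CPM and Mmp8 at 1191 CPM, each in 10 of these 11 cells, which had a median depth of 3514 UMIs. T cells of heart PBMC held Lcn2 and Mmp8 at 2922 and 1181 CPM, so these 2 levels could not be set apart from those of T cells. The Ctsg UMIs numbered 13, in 2 cells. Of the 11 cells, 9 also met the neutrophil rule. The primary granule cells of liver PBMC were 6 cells with Prtn3 alone of the primary genes. Groups of fewer than 20 cells are given as values with no fold.

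**Figure D4:**
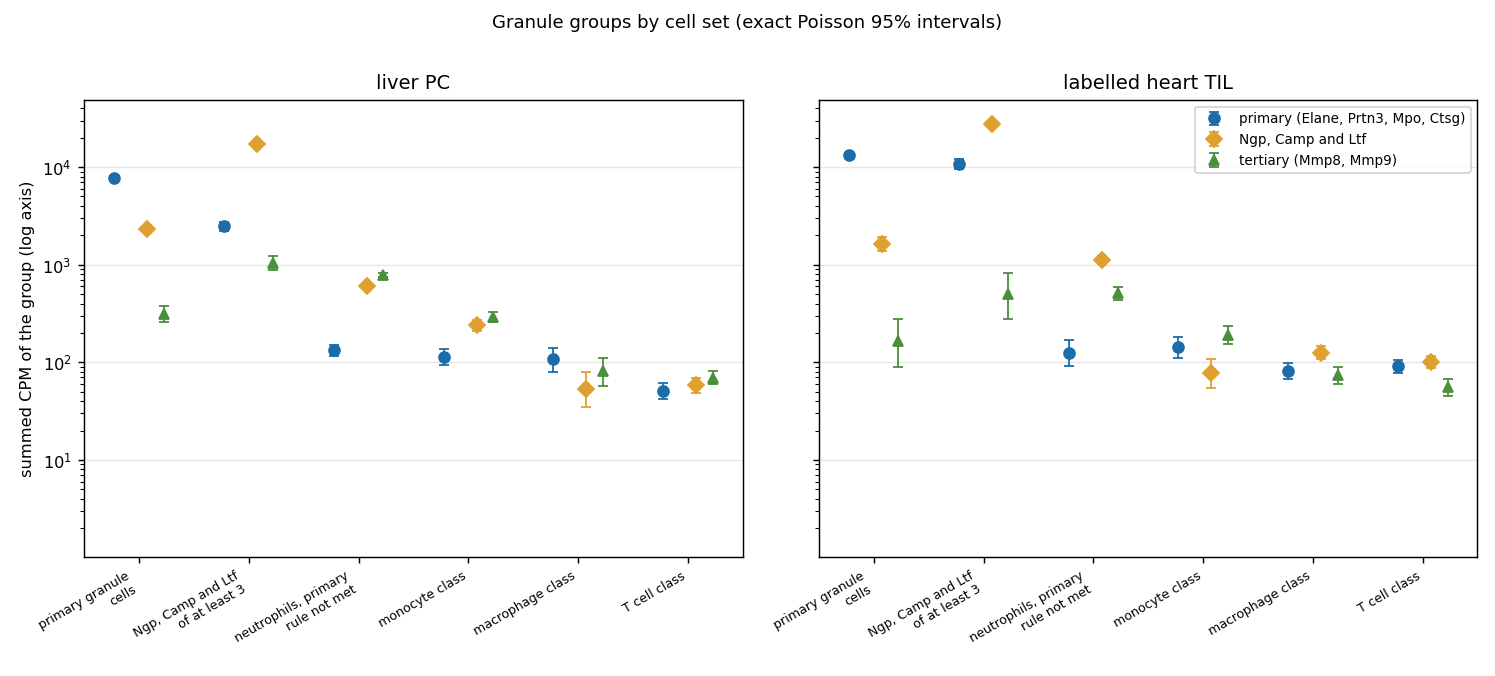
CPM of the primary, the Ngp, Camp and Ltf, and the tertiary groups in 6 sets of cells of liver PC and the library labelled heart TIL, on a log axis with exact Poisson 95% intervals. Tertiary levels are lower in primary granule cells than in neutrophils, primary levels are higher by the choice of cells, and T cells hold the primary genes at 51.1 and 90.9 CPM.

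Cells rich in Ngp, Camp and Ltf were compared between libraries. Cells with at least 3 UMIs of these genes, a choice made after the data had been seen, numbered 210 in heart PBMC, 19 for liver and 13 for kidney PBMC, 27 in the library labelled heart TIL, 82 in liver PC and 5 in the library labelled liver TIL. Their part of all Ngp UMIs, which the choice itself raises, ran from 38.3% in the library labelled liver TIL to 78.8% in kidney PBMC, with no order by blood or graft. The neutrophil rule was met by 164 of the 210 cells in heart PBMC, 7 of 19 in liver PBMC and 3 of 13 in kidney PBMC, and by 5 of 27 in the library labelled heart TIL, 18 of 82 in liver PC and 1 of 5 in the library labelled liver TIL. The rule was met by 75.5%, 39.1% and 9.8% of all passing cells in the 3 blood libraries and by 3.58%, 8.81% and 4.31% in these tissue libraries, in the same order.

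In blood these cells held late transcripts beside the secondary ones. Tertiary genes stood at 6362 CPM in PBMC of heart, 5420 CPM in that of liver and 8796 CPM in that of kidney recipients, Retnlg at 38841, 30236 and 29428 CPM, and primary genes at 40.3 CPM, 65.3 CPM and 0 UMIs, on 9, 1 and 0 UMIs. In the library labelled heart TIL and in liver PC they held primary transcripts at 10757 and 2485 CPM, tertiary at 501 and 1046 CPM and Retnlg at 2439 and 5643 CPM. Fcnb was at 1437 and 426 CPM and Cebpe at 234 and 187 CPM there, against 22.4 and 13.4 CPM in heart PBMC. The primary UMIs of the library labelled heart TIL were in 7 of 27 cells, and without the 5 richest cells the level was 92.2 CPM. In liver PC they were in 22 of 82 cells, and the level without the 5 richest was 617 CPM, still above the 40.3 CPM of heart PBMC. The primary rule was also met by 4 of the 27 cells and by 11 of the 82, so these are in part the primary granule cells described above. The 5 cells of the library labelled liver TIL held 0 primary UMIs of 3222, which allows up to 931 CPM. They held tertiary genes at 1552 CPM (504-3621), on 5 UMIs, and Retnlg at 8380 CPM, so no direction can be read from these few cells. No p-value is given for these contrasts, with 1 library on each side.

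**Figure D5:**
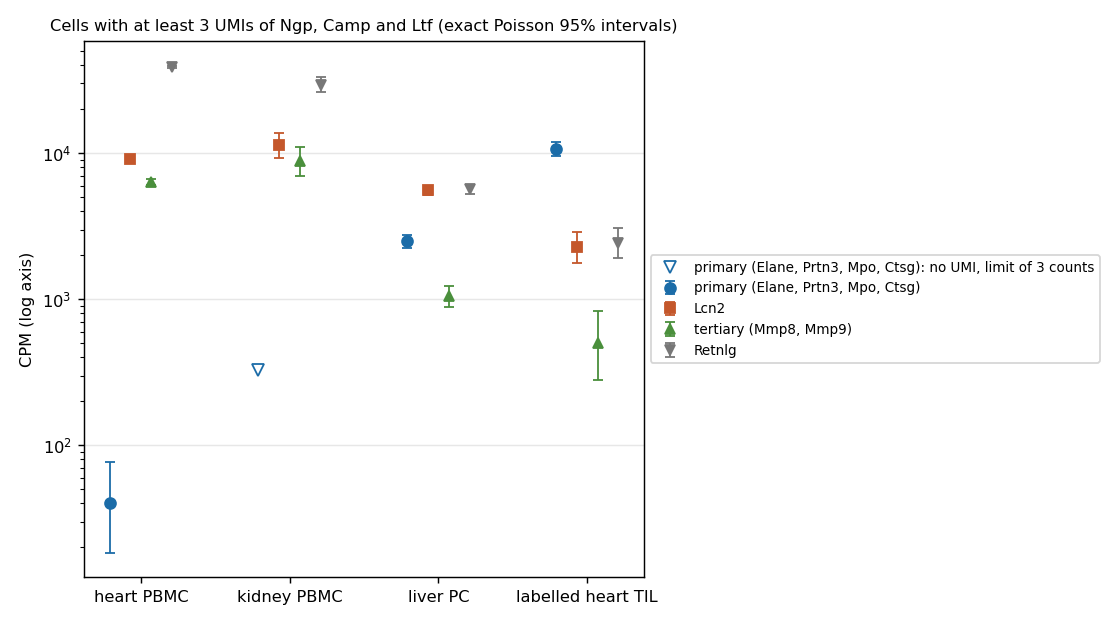
CPM of the primary genes, Lcn2, the tertiary genes and Retnlg in cells with at least 3 UMIs of Ngp, Camp and Ltf, in 4 libraries, on a log axis with exact Poisson 95% intervals; open triangles are the limit of 3 UMIs where none was seen. Primary levels are 40.3 CPM in heart PBMC and 10757 CPM in the library labelled heart TIL, while Retnlg is 38841 and 2439 CPM.

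Within neutrophils of heart PBMC, the library with most of them, cells with and without Ngp, Camp or Ltf differed little in the later genes after thinning. Mmp8 stood at 3787 CPM in the 1202 cells with and 3351 CPM in the 4668 cells without, Mmp9 at 1030 and 912 CPM, Lcn2 at 6943 and 6694 CPM, and Retnlg at 36221 and 32871 CPM. None of these reached 2-fold. Elane was at 0 UMIs with and 10.7 CPM without, on 25 UMIs, and Prtn3 at 46.6 and 52.7 CPM. In this library a UMI of Ngp, Camp or Ltf was seen in 20.5% of thinned neutrophils. It was seen in 21.3% of B cells, 18.6% of monocytes and 11.0% of T cells. The split may thus not part neutrophils by transcripts of their own, and no stage is read from it. In liver PC the 71 neutrophils with Ngp, Camp or Ltf held Lcn2 at 6000 CPM, tertiary genes at 1577 CPM and primary genes at 986 CPM, against 2583, 1007 and 215 CPM in the 810 without.

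Over 40 sets of cells, each a library and a class of at least 20 cells, the genes most like each group were found by the Pearson correlation of log2(CPM + 1), among 9679 genes with at least 200 UMIs. The sets share libraries and depth, so the values are descriptions. They include the primary granule cells of liver PC and of the library labelled heart TIL, which were chosen by the primary sum itself. F13a1 is also one of the genes that define the monocyte sets. Among the members, Prtn3 followed the primary sum most closely, at 0.985. It is itself part of that sum, with 110 of the 116 primary UMIs in liver PBMC neutrophils, so this value is in part built in. Chil3 (0.842), Ms4a3 (0.840), Fcnb (0.826), F13a1 (0.791) and Tfec (0.782) were most like the primary sum. Hp (0.848), Ifitm6 (0.833), Mrgpra2a (0.828), S100a8 (0.825) and Rin3 (0.823) were most like the secondary sum, which Lcn2 dominates. Slfn4 (0.936), S100a11 (0.935), Slpi (0.930), Stfa1 (0.928) and Pi16 (0.927) were most like the tertiary sum. With the tertiary sum, the secondary members had correlations of 0.805 (Ngp), 0.703 (Camp), 0.743 (Ltf) and 0.763 (Lcn2), and the primary members of 0.521 (Prtn3), 0.214 (Elane), 0.110 (Ctsg) and 0.040 (Mpo).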

How the data were processed

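Per the methods of the study, the authors processed Microwell-seq reads with the Drop-seq tools, mapped them with STAR to GRCm38, tagged them with GENCODE (release not given in the sources used here) and merged molecular barcodes within a gene. The deposited tables hold whole-number UMI counts per gene and barcode, 1 table for each of 8 libraries. The submitters' processing notes also name bcl2fastq. The doublet treatment was not given, and none were removed here. Cells with at least 500 UMIs were kept, as in the study. The mitochondrial limit of 10% was run as an alternative.

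Counts were summed over the cells of a set and given as CPM with exact Poisson 95% intervals. Ratios of CPM had exact conditional binomial intervals, and shares exact binomial (Clopper-Pearson) intervals after thinning each cell to 500 UMIs (seed 0). A sum of 0 was set at the limit of 3 UMIs. Each group was 1 library, so no test between groups was made, and none pooling organs or compartments was run. A call was at least 2-fold among genes with at least 20 UMIs in both sums together, and sets under 20 cells got no fold. Named genes were the 10 members, fixed lists of stage, mature, transcription factor, cycling and cell type genes, and the 5 genes most correlated with each group sum. Members and lists were chosen with earlier results of these data known. Of the lists, the NK cell, plasma cell and progenitor lists are not used in the text. Alternatives were other floors, cell rules, thinning, leaving out members, shared barcodes or marker-holding cells, and pseudocounts, plus some added after the data had been seen. Gene positions were from GENCODE vM21 and promoters from RefSeq GRCm38.p6. Scripts ran in Python 3.11.15 with numpy 2.4.6, scipy 1.17.1, pandas 2.3.3 and matplotlib 3.10.9, and were tested on simulated data.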

Additional observations from a re-analysis of the deposited data

Results flagged for a closer look

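The 2 TIL libraries moved in opposite directions against blood of the same label in 3 values. The log2 ratio of TIL over PBMC neutrophils was 1.93 for Prtn3 with the heart label and -1.76 with the liver label. It was 3.30 and -1.83 for the 4 primary genes together, and 0.71 and -1.04 for Ngp, Camp and Ltf together. The difference between the labels was not tested, since each is 1 library. Without the richest cell of each sum the heart-label values were 0.88, 1.76 and 0.23. Without the 5 richest, Prtn3 stood at 50.2 CPM against 50.1 CPM in blood, about equal to it. The 4 primary genes together stood at 134 CPM against 60.1 CPM, still 2.23-fold higher with the heart label. Ngp, Camp and Ltf together stood at 65.3 CPM against 564 CPM, turned to the direction of the liver label. Hepatocyte genes go against the labels of both libraries.

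Barcodes below the floor of 500 UMIs that met the neutrophil rule numbered 1207 in heart PBMC, 998 in liver PBMC, 605 in kidney PBMC, 25 in the library labelled liver TIL and 6 in the library labelled heart TIL. Lcn2 stood at 6684 CPM in those of heart PBMC, 2550 CPM in liver PBMC and 1540 CPM in kidney PBMC, and Ngp at 315, 66.9 and 240 CPM, so Lcn2 and Ngp were again higher in heart PBMC than in liver PBMC.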

How the results depend on the processing

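Values are log2 ratios of the 4 secondary genes together, or of Mmp8 and Mmp9 together (tertiary). With 1 library per group there were no replicates to leave out, and intervals cover counting error only. No paired analysis was possible because each group is 1 library, its number 1 being only a name, although blood and graft libraries of an organ come from the same recipients. The median ratio of all genes lay between -0.44 and 0.53. A mitochondrial limit of 10% removed no neutrophil or primary granule cell and so could move no value. Members left out of the total (the 14 between libraries) and a pseudocount of 10 CPM (the 6 between blood libraries) moved none of the secondary or tertiary values they were run on by more than their intervals. The causes of the moves below were not tested.

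For liver over heart blood the values were -1.62 secondary and -1.33 tertiary, with -1.84 and -1.48 at a floor of 1000 UMIs, -1.53 and -1.25 with at least 3 UMIs of the neutrophil genes, and -1.56 secondary after thinning. For liver over kidney blood the secondary value of -0.62 became -0.24 with at least 3 UMIs, -0.12 without marker-holding cells, -0.30 without shared barcodes and -0.22 without the richest cell. For heart over kidney blood it went from 1.0 to 1.29, 1.5, 1.30 and 1.40 in the same order. There Ltf turned to 0.78 with at least 3 UMIs, Camp to 1.05 without marker-holding cells, Camp and Ltf to 0.24 and 0.34 without shared barcodes, and to 0.48 and 0.64 without the richest cell.

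For the library labelled heart TIL over that labelled liver TIL the secondary value of 2.68 was 3.75 at a floor of 1000 UMIs, 3.28 with at least 3 UMIs or with at least 2 of the 3 neutrophil genes, and 2.36 thinned. For liver PC over liver PBMC, 0.28 secondary and -1.12 tertiary became 0.43 secondary at a floor of 1000 UMIs, 0.53 and -0.68 with at least 3 UMIs, 0.43 and -0.97 with at least 2 genes, 1.10 and -0.32 without marker-holding cells, 0.19 secondary without primary granule cells, 0.55 and -0.76 thinned, and 0.20 secondary without the richest cell. For the library labelled heart TIL over heart PBMC, -1.95 and -3.09 became -1.53 and -3.72 at the higher floor, -1.18 and -2.42 with at least 3 UMIs, -1.58 secondary with at least 2 genes, 0.072 and -1.47 without marker-holding cells, -2.74 tertiary thinned, -1.65 secondary without shared barcodes and -2.26 secondary without the richest cell. For the library labelled liver TIL over liver PBMC the secondary value of -3.02 was -3.43 at the higher floor and -2.70 thinned.

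For primary granule cells over neutrophils in liver PC, 0.41 secondary and -1.32 tertiary became 0.54 secondary at the higher floor, 0.57 secondary without shared barcodes, -0.24 secondary with at least 2 primary UMIs, 1.01 and -2.69 with at least 5, 0.54 and -1.72 with at least 2 of the 4 genes, 0.035 and -2.32 without cells that met the neutrophil rule, and 0.15 secondary without the richest cell. In the library labelled heart TIL, 0.00 secondary became -0.42 with at least 2 primary UMIs, 0.47 with at least 5 and -0.36 without the richest cell, and -1.62 tertiary became -0.52 at the higher floor and -2.55 without cells that met the neutrophil rule.

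Exchange of the labels of the 2 TIL libraries and removal of the richest cells were chosen after seeing the data. With exchanged labels, heart TIL over liver TIL was -2.68 secondary, -1.03 tertiary, -5.41 primary, -4.41 for Ngp, Camp and Ltf together, -3.75 for Prtn3, -3.67 for Ngp, -2.94 for Ltf, -1.74 for Lcn2 and -1.42 for Mmp8. Heart TIL over heart PBMC was -4.64 secondary, -4.12 tertiary, -2.11 primary and -1.82 for Prtn3. Liver TIL over liver PBMC was -0.34 secondary, -1.76 tertiary, 3.57 primary, 3.37 for Ngp, Camp and Ltf together and 1.99 for Prtn3.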

Other observations

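Lcn2 was also found where neutrophils were not. Kidney PC and kidney TIL, with 0 neutrophils, held 69 and 56 Lcn2 UMIs (139.5 and 37.9 CPM) and 0 UMIs of Ngp, Camp and Ltf. Ltf was not listed for kidney PC, nor Camp and Ctsg for kidney TIL, and a gene not listed was counted as 0. In kidney PC 8 cells held 35 of these UMIs, and in kidney TIL 5 cells held 37, with S100a8 at 1 and 0 UMIs in them. In the library labelled liver TIL, 35 cells outside both rules with at least 2 Lcn2 UMIs held Lcn2 at 3160 CPM and the stromal genes Dcn, Mgp, Col3a1, Col1a2 and Col1a1 at 19818 CPM together, against 947 CPM in the other cells outside both rules, with 3 UMIs of Ngp and 0 of Camp. None of these values was compared between groups.

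The 5 primary granule cells of the library labelled liver TIL held Prtn3 at 2554 CPM, Elane at 1532 CPM and Ctsg at 1362 CPM on 15, 9 and 8 UMIs, and 0 UMIs of Mpo and of the secondary and tertiary genes. They held Cpa3 at 6470 CPM and Tpsb2 at 5449 CPM, a carboxypeptidase and a tryptase of mast cells.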
